A study of Mus musculus with 8 samples.

Results

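The CD8 T cells of the long bone periosteum, the cell layer that covers the outer surface of bone, were examined by single-cell RNA sequencing in mice fed a normal diet (ND) or a high-fat diet (HFD). There was 1 deposited matrix per diet, which pools its samples and is called a library here. Both libraries came from male C57BL/6J mice of 16 weeks of age, and the left femurs and tibias were digested with collagenase and dispase. ND mice received chow, and HFD mice received a diet with 60% of its kcal from fat, started at 4 weeks of age and fed for 12 weeks. The labels list 4 samples per diet, but the deposited matrices do not tell which mouse a cell came from, so each diet counted as 1 sample, no test between diets could be made, and diet cannot be told apart from library. The cells were selected by the measured transcripts of the T cell co-receptors, so the genes used in the selection are a description and not a result. A kept barcode had more than 500 and fewer than 8000 genes and less than 20% of its unique molecular identifiers (UMIs, 1 per captured RNA molecule) from mitochondrial genes. A CD8 T cell was a kept barcode with a sum of at least 3 UMIs of Cd3e, Cd3d and Cd3g and at least 1 UMI of Cd8a or Cd8b1. It also had 0 UMIs of Cd4, fewer than 2 UMIs of Cd79a, a B cell receptor chain, and less than 2% of its UMIs from the neutrophil genes S100a8 and S100a9. The rule took 217 of 12253 kept cells, 131 of 6029 in the ND library and 86 of 6224 in the HFD library.

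CD8 T cells recognize peptides on major histocompatibility complex (MHC) class I through an alpha-beta T cell receptor, and the CD8 co-receptor binds the same MHC molecule. Naive cells circulate through lymphoid tissue with the help of the chemokine receptor Ccr7. Memory and effector cells carry transcripts for the chemokine Ccl5 and for lytic granule proteins, and many acquire receptors first described on natural killer (NK) cells. Bone marrow is known to hold memory CD8 T cells, and T cell cytokines act on bone-forming and bone-resorbing cells.

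The label fitted the markers. Transcripts of Trac, the constant region of the T cell receptor alpha chain that the rule did not use, were found in 91.6% of ND and 93.0% of HFD CD8 T cells. At least 1 UMI of Trac, Trbc1 or Trbc2 was present in 130 of 131 ND cells and in all 86 HFD cells. Cd8b1, the CD8 beta chain, was detected in 107 ND and 77 HFD cells, while 24 ND and 9 HFD cells had Cd8a only. Trdc, the constant region of the delta chain, was detected in 5 ND and 3 HFD cells, each of which also had a transcript of the alpha or beta constant regions. At least 10 UMIs of gamma delta T cell markers were found in 2 ND and 2 HFD cells, with up to 12 and 22 in 1 cell. Whether these were gamma delta T cells was not tested. Foxp3 of regulatory T cells and Il17a were at 0 UMIs in both libraries.

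Most cells lay well inside the limits of the rule. The median sum of the Cd3 genes was 11 UMIs in ND and 14 in HFD. Just inside the limit, 1 ND and 1 HFD cell had a sum of 3, and just outside it, 3 ND and 2 HFD cells had a sum of 2. The median sum of Cd8a and Cd8b1 was 5 UMIs in both libraries, and 27 ND and 10 HFD cells had the minimum of 1. T cells that met the other limits with 0 UMIs of Cd8a, Cd8b1 and Cd4 numbered 116 in ND and 98 in HFD. These are called double-negative T cells here, and a CD8 T cell whose co-receptor transcripts were not captured cannot be told apart from them. A Cd4 UMI kept out 1 ND and 1 HFD cell, the Cd79a limit kept out 5 ND and 3 HFD cells, and the neutrophil limit kept out 5 ND and 1 HFD cell. No cell was lost at the gene or mitochondrial limits alone.

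CD8 T cells made up 2.17% of kept cells in ND (exact 95% binomial interval 1.82 to 2.57) and 1.38% in HFD (1.11 to 1.70), and these intervals did not overlap. With a minimum of 2 Cd8a and Cd8b1 UMIs the shares were 1.73% (1.41 to 2.09) and 1.22% (0.96 to 1.53), and the intervals overlapped. Among T cells the share was 49.1% in ND (42.9 to 55.2) and 43.9% in HFD (36.8 to 51.1), and here the intervals overlapped. All T cells numbered 267 in ND and 196 in HFD. The intervals cover counting error only and not the spread between mice. The median CD8 T cell had 7075 UMIs and 1756 genes in ND and 7615 UMIs and 1802 genes in HFD, and the class held 1008652 UMIs in ND and 702254 in HFD. The libraries shared 15 cell barcodes, of which 0 were CD8 T cells in ND and 1 was in HFD.

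Some cells held transcripts of other cell types. Mesenchymal marker UMIs summed to 626 in the ND class, or 621 per 1000000 UMIs of the class (UPM), with 305 of them in 1 cell. The HFD class had 669, or 953 UPM, with 532 in 1 cell. Decorin (Dcn), a matrix proteoglycan, was their most abundant gene. Lyz2, the lysozyme of macrophages and neutrophils, had 255 UMIs in ND and 87 in HFD, of which 1 ND cell held 188 and 1 HFD cell held 56. One ND cell had 58569 UMIs, 5.81% of the class, together with histone and proliferation transcripts. In all, 5 ND and 3 HFD cells had at least 10 mesenchymal UMIs, at least 20 Lyz2 UMIs or more than 50000 UMIs. These cells stayed in the class. The counts of genes in each comparison, and the values of several lists, are also given without them. Neutrophil transcripts were spread widely: the neutrophil markers were found in every CD8 T cell, at 1017 UPM in ND and 1293 in HFD, led by S100a9. At least 10 of their UMIs were found in 30 of 131 ND and 46 of 86 HFD cells, with up to 63 and 77 in 1 cell. S100a9 was also found in 1423 of 1553 ND B cells. B cell markers, led by Ighm, summed to 180.4 UPM in ND and 159 in HFD, gamma delta T cell markers to 53.5 and 75.5, and dendritic cell markers to 65.4 and 34.2. Erythroid markers, led by the hemoglobin gene Hbb-bs, had 111 UMIs in 67 ND cells and 95 in 51 HFD cells, with Alas2 at 0. Endothelial markers, led by Pecam1, had 29 UMIs in 23 ND cells and 12 in 11 HFD cells, with Kdr at 0. CD4 T cell markers, led by the costimulatory receptor Icos, had 77 UMIs in ND and 47 in HFD.

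Ccl5 split the CD8 T cells. In the ND library 61 cells had 0 Ccl5 UMIs, 14 had 1 to 7 and 56 had 11 or more. In the HFD library 34 cells had 0, 7 had 1 to 6 and 45 had 12 or more. Between 7 and 11 UMIs in ND, and between 6 and 12 in HFD, there was no cell. Cells with 11 or more UMIs are called Ccl5-high (42.7% of ND cells, interval 34.1 to 51.7, and 52.3% of HFD cells, 41.3 to 63.2), and cells with 0 are called Ccl5-negative (46.6% and 39.5%). The limit of 11 was set after the distribution had been seen. B cells, which should lack Ccl5, had a Ccl5 UMI in 5.54% of ND cells at a median of 3880 UMIs and in 4.51% of HFD cells at 3830.5. The share of CD8 T cells with any Ccl5 UMI was 53.4% in ND and 60.5% in HFD. With every cell thinned to 1000 UMIs these shares were 45.0% and 53.5%, and no cell was too shallow to be thinned.

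**Figure D1:**
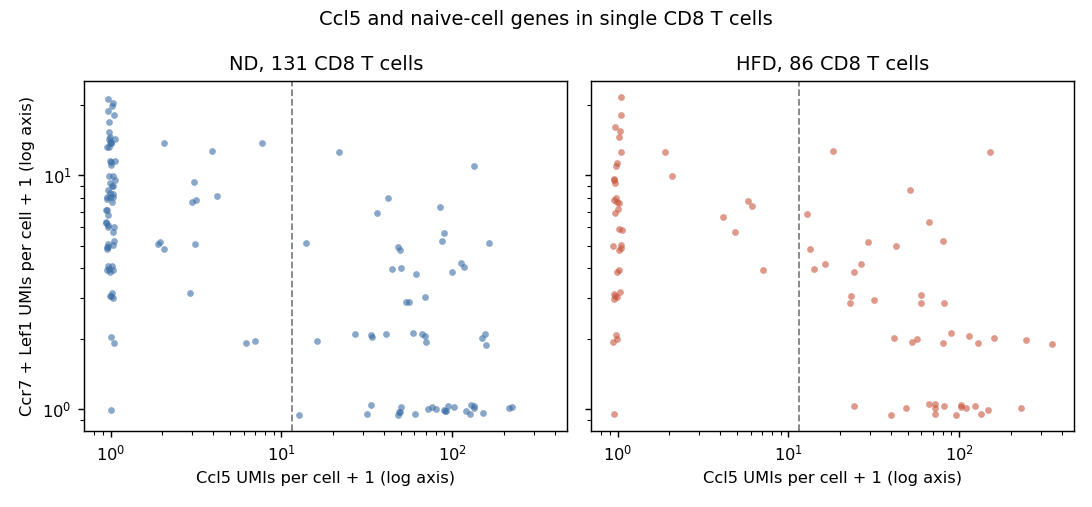
Each point is 1 CD8 T cell of the ND (left, 131 cells) or HFD library (right, 86 cells). The x axis shows Ccl5 UMIs plus 1 and the y axis the summed UMIs of Ccr7 and Lef1 plus 1, both on log axes with slight jitter, and the dashed line marks 11 Ccl5 UMIs. Of the cells without Ccl5, 60 of 61 in ND and 33 of 34 in HFD have at least 1 UMI of these naive genes, while the points right of the line reach from 0 to 11 such UMIs in ND and to 12 in HFD.

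The same split ran through the naive genes. A UMI of Ccr7 or Lef1, the latter a transcription factor of naive T cells, was found in 60 of 61 ND and 33 of 34 HFD Ccl5-negative cells. Among Ccl5-high cells, 32 of 56 in ND (57.1%) and 29 of 45 in HFD (64.4%) had one. The median summed UMIs of both genes was 7 in ND and 5.5 in HFD for Ccl5-negative cells, against 1 in Ccl5-high cells of either library. The groups overlapped, since Ccl5-high cells reached 11 UMIs in ND and 12 in HFD. Over all CD8 T cells, the share with a UMI of these genes was 80.9% in ND and 80.2% in HFD. It was 42.0% and 32.6% after thinning to 1000 UMIs. This pair of genes was chosen after the data had been seen.

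Gene levels were then compared between Ccl5-high and Ccl5-negative cells within each library, as UPM of the summed cells. Both groups came from the same cells, so the differences describe how the class is built and were not tested. A gene could also reach the minimum of 20 UMIs through the group in which it was high, so counts over a list's genes that passed are a description only. Among 5675 genes with at least 20 UMIs, 290 were at least 2-fold higher in Ccl5-high cells in both libraries, which is 5.11% of the genes, and 120 were at least 2-fold lower, which is 2.11%. Without the 5 ND and 3 HFD cells described above, 240 of 5197 genes were higher and 95 lower. In the memory list, 11 of 16 genes with enough UMIs, Ccl5 included, were at least 2-fold higher in both libraries and 0 were 2-fold lower. The median log2 ratio of the list was 2.10, and 1.19 with genes at 0 UMIs set at the bound that 3 counts allow. Ly6c2, a surface protein of memory CD8 T cells, stood at 634 UPM in ND and 1016 in HFD Ccl5-high cells. In Ccl5-negative cells it stood at 135 and 127, giving log2 ratios of 2.22 and 2.98. Il2rb, the interleukin-15 and interleukin-2 receptor beta chain, had 250 and 221 UPM against 51.3 and 56.8. Eomes, a memory transcription factor, had 116 and 88.4 UPM against 14 and 4.37. In every one of these pairs both libraries had their higher level in the Ccl5-high cells.

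Killing and signaling genes followed Ccl5. Of 12 cytotoxic granule genes, 10 were at least 2-fold higher in Ccl5-high cells. Nkg7, a granule membrane protein, stood at 1065 UPM in ND and 1377 in HFD against 312 and 450, log2 ratios of 1.77 and 1.61. Fasl, the death receptor ligand, had 38 and 26 UMIs in Ccl5-high cells and 0 in Ccl5-negative cells of both libraries. Gzma, granzyme A, had 110 UMIs in 5 ND cells and 235 in 9 HFD cells, again with 0 in Ccl5-negative cells. Among the chemokine and cytokine ligands 5 of 9 were higher, Ccl5 included. Xcl1, a chemokine that attracts cross-presenting dendritic cells, had 306 and 206 UMIs in Ccl5-high cells and 24 and 1 in Ccl5-negative cells.

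Apart from Klrd1, NK receptor transcripts lay almost wholly in the Ccl5-high cells. The list had 566 UMIs in ND and 516 in HFD Ccl5-high cells and 52 and 30 in Ccl5-negative cells, of which Klrd1 held 48 and 30. The other genes thus passed the minimum of 20 UMIs through the Ccl5-high cells, and 11 of the 12 that passed were at least 2-fold higher there in both libraries, with a median log2 ratio of 4.29. Because several were at 0 in Ccl5-negative cells, that median depends on the added count of 0.5, and with such genes set at the bound that 3 counts allow it was 2.03. Klrk1, the activating receptor NKG2D, had 193 UMIs in ND and 99 in HFD Ccl5-high cells and 0 in Ccl5-negative cells. It was at least 57.0-fold higher in ND and at least 18.5-fold higher in HFD, taking 3 counts per library as the floor. Klrc1, the inhibitory receptor NKG2A, had 90 and 80 UMIs against 0 and 0. Klrd1, its CD94 partner chain, was the exception of the list, with 142 and 218 UPM in Ccl5-high cells against 112 and 131 in Ccl5-negative cells.

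**Figure D2:**
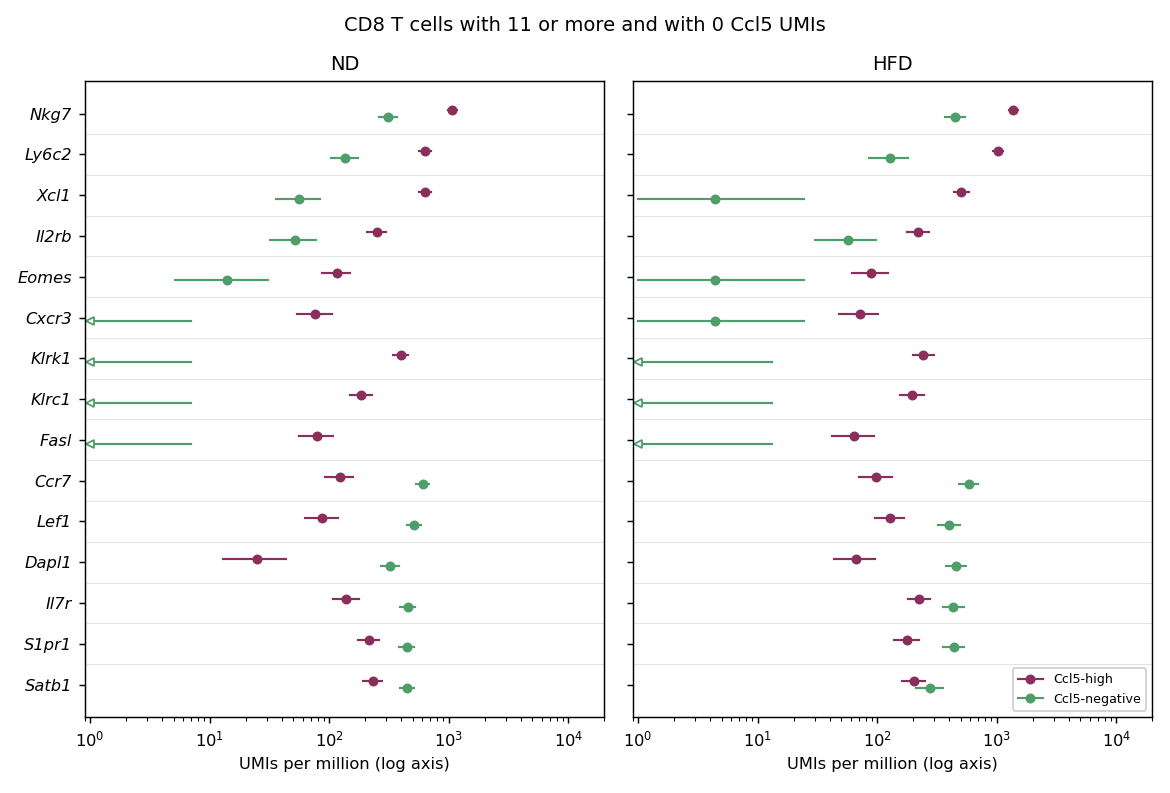
Levels of 15 genes in Ccl5-high (purple) and Ccl5-negative (green) CD8 T cells of the ND (left) and HFD library (right). The x axis shows UPM on a log axis, bars are exact 95% Poisson intervals of the summed UMIs, and open triangles at the left edge are genes at 0 UMIs. Nkg7 to Fasl lie to the right in Ccl5-high cells and Ccr7 to S1pr1 in Ccl5-negative cells of both libraries.

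Genes of naive cells ran the other way. All 14 genes of the naive list were below 0 on the log2 scale in both libraries, 6 of them at least 2-fold lower in Ccl5-high cells, with a median log2 ratio of -0.85. Ccr7 stood at 122 UPM in ND and 98.2 in HFD Ccl5-high cells against 606 and 581 in Ccl5-negative cells, log2 ratios of -2.31 and -2.55. Dapl1, a transcript of naive CD8 T cells, had log2 ratios of -3.65 and -2.77. Il7r, the interleukin-7 receptor, had -1.70 and -0.95, and S1pr1, the receptor that guides exit from tissue, had -1.05 and -1.30. For Satb1, a chromatin organizer, the values were -0.95 and -0.45, and the HFD interval of -0.94 to 0.05 included 0.

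The co-receptor chains differed from each other. Cd8b1 stood at 299 UPM in ND and 454 in HFD Ccl5-high cells and at 627 and 704 in Ccl5-negative cells, log2 ratios of -1.06 and -0.63. Cd8a had log2 ratios of -0.10 and 0.11, with intervals that included 0. The rule counted the sum of both chains, so this is a description of the selected cells.

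Proliferation genes were at least 2-fold higher in Ccl5-high cells for 15 of 21 genes, with summed log2 ratios of 1.32 in ND and 1.19 in HFD. With the 5 ND and 3 HFD cells named above left out, 4 of 14 genes with enough UMIs were at least 2-fold higher. The summed ratio was then 0.43 in ND and 1.23 in HFD, so leaving out these cells lowered the ND value and not the HFD value. Without those cells 10 of 14 memory, 10 of 12 cytotoxic granule and 10 of 11 NK receptor genes were at least 2-fold higher and 5 of 14 naive genes lower. The summed immediate-early list had -0.44 in ND and -0.75 in HFD, and -0.15 and -0.72 without those cells. Of glycolysis genes, 3 of 14 were at least 2-fold higher in both libraries, and all 14 were above 0. Their summed log2 ratio was 0.86 in ND and 0.77 in HFD, and 0.44 and 0.77 without those cells. Interferon genes had 2 higher and 1 lower of 18, and TCR complex and signaling genes, which include genes of the rule, had 2 higher and 1 lower of 30.

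CD8 T cells were set beside 3 other lymphocyte classes to show where they differ, again with 1 library per diet and no test. CD4 T cells (Cd4 of at least 1 UMI and no CD8) numbered only 19 in ND and 11 in HFD and held 117990 and 48070 UMIs. Of 6235 genes, 124 were at least 2-fold higher in CD8 than in CD4 T cells in both libraries, or 1.99%, and 406 were at least 2-fold lower, or 6.51%. The CD4 class is small, and these counts depend on the added count. A value of 0.1 in place of 0.5 gave 390 higher and 256 lower, the opposite balance. With 1 there were 36 higher and 608 lower. Without the 5 ND and 3 HFD CD8 T cells with other RNA or very many UMIs, 97 genes were higher and 390 lower. In the NK receptor list 8 of 12 genes were higher and 0 lower, with a median log2 ratio of 1.61 that became 0 once genes without CD4 UMIs were set at their bound. Klrd1 had 127 UMIs in ND and 126 in HFD CD8 T cells and 0 in CD4 T cells of both libraries, at least 4.95-fold and 2.87-fold higher. Ccl5 stood at 4487 UPM in ND and 5159 in HFD CD8 T cells against 288 and 624 in CD4 T cells, log2 ratios of 3.94 and 3.02. Klrc1, Klre1, Klra7, Gzma, Ccl3 and Ccl4 were also among the 10 highest genes, and so were the mesenchymal genes Gsn and Dcn. Single cells held 182 of the 356 ND and 431 of the 521 HFD Dcn UMIs.

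Several of the genes lowest in CD8 against CD4 T cells are known from activated and regulatory T cells. Tnfrsf4, the costimulatory receptor OX40, stood at 381 UPM in ND and 291 in HFD CD4 T cells, with log2 ratios of -7.28 and -6.40 in CD8 T cells. The size of these ratios leans on the added count, since CD8 T cells had very few Tnfrsf4 UMIs. Izumo1r, a folate receptor family member of regulatory T cells, had -3.80 and -3.66, and the transcription factor Maf had -3.85 and -3.31. Ifi27l2a, an interferon-inducible gene, stood at 196 UPM in ND and 202 in HFD CD8 T cells, and its log2 ratios to CD4 T cells were -2.35 and -2.31. In the interferon list, 7 of 20 genes were at least 2-fold lower in CD8 T cells and 0 were higher. Capg, Pkp3, Rora, Ass1, Faah and Glrx completed the 10 lowest genes.

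Double-negative T cells, which were nearer in number, had 96 of 7857 genes (1.22%) at least 2-fold higher and 147 (1.87%) at least 2-fold lower in CD8 T cells. Of the 10 genes highest in CD8 T cells, Fbn1, Dpt, Fstl1, Igfbp6, Aspn, Clec3b and Gsn are known from connective tissue cells, and most of their UMIs came from few cells. Fstl1, a secreted matrix glycoprotein, had 108 UMIs in ND and 22 in HFD CD8 T cells, of which single cells held 87 and 13. Gsn, the actin-severing protein gelsolin, had log2 ratios of 3.41 and 1.99, and -1.25 and -0.93 once the 5 ND and 3 HFD CD8 T cells were left out. Without those cells 34 of 7581 genes (0.448%) were higher and 219 (2.89%) lower, and the highest gene was Dapl1, a transcript of naive CD8 T cells, with log2 ratios of 2.00 and 2.58. Mesenchymal marker UMIs also differed in the double-negative T cells, at 2458 UPM in ND and 132 in HFD, and no double-negative cell was left out. The largest ND double-negative cell held 97306 of the 836040 UMIs of its class, above the limit of 50000 used for CD8 T cells. Values without those CD8 T cells thus compare a class with such cells removed and a class that kept them. Trdc stood at 492 UPM in ND and 393 in HFD double-negative cells and at 18.8 and 47.0 in CD8 T cells, log2 ratios of -4.67 and -3.05. Tcrg-C2, a gamma chain constant region, had -2.45 and -2.55. Themis, a T cell signaling protein, had log2 ratios of 1.85 and 0.91, and 1.98 and 0.93 without those cells. Of 12 NK receptors, 6 were at least 2-fold lower in CD8 T cells and 1 was higher, and without those cells 6 of 11 were lower and 0 higher. The transcription factor Ahr had log2 ratios of -2.49 and -2.51.

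NK cells, selected as cells without Cd3 transcripts and with at least 2 UMIs of Ncr1, Klrb1c and Klre1, differed more. Of 7708 genes, 229 (2.97%) were at least 2-fold higher in CD8 T cells and 640 (8.3%) at least 2-fold lower. These counts were 191 and 744 of 7421 genes without the 5 ND and 3 HFD CD8 T cells. Cytotoxic granule genes were lower in CD8 T cells for 7 of 12, higher for 2. Gzma stood at 110 UPM in ND and 335 in HFD CD8 T cells against 5835 and 7484 in NK cells. Prf1, perforin, had log2 ratios of -3.90 and -4.75, and Klrk1 had -2.09 and -2.05. Among naive genes 7 of 14 were higher in CD8 T cells, with Dapl1 at 0 UMIs in NK cells of both libraries. Cd5, a brake on T cell receptor signaling, was likewise at 0 in NK cells and at least 22.2-fold higher in ND and 24.6-fold higher in HFD CD8 T cells. Klra8, Klrb1b and Styk1 were among the 10 lowest genes in CD8 T cells.

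**Figure D3:**
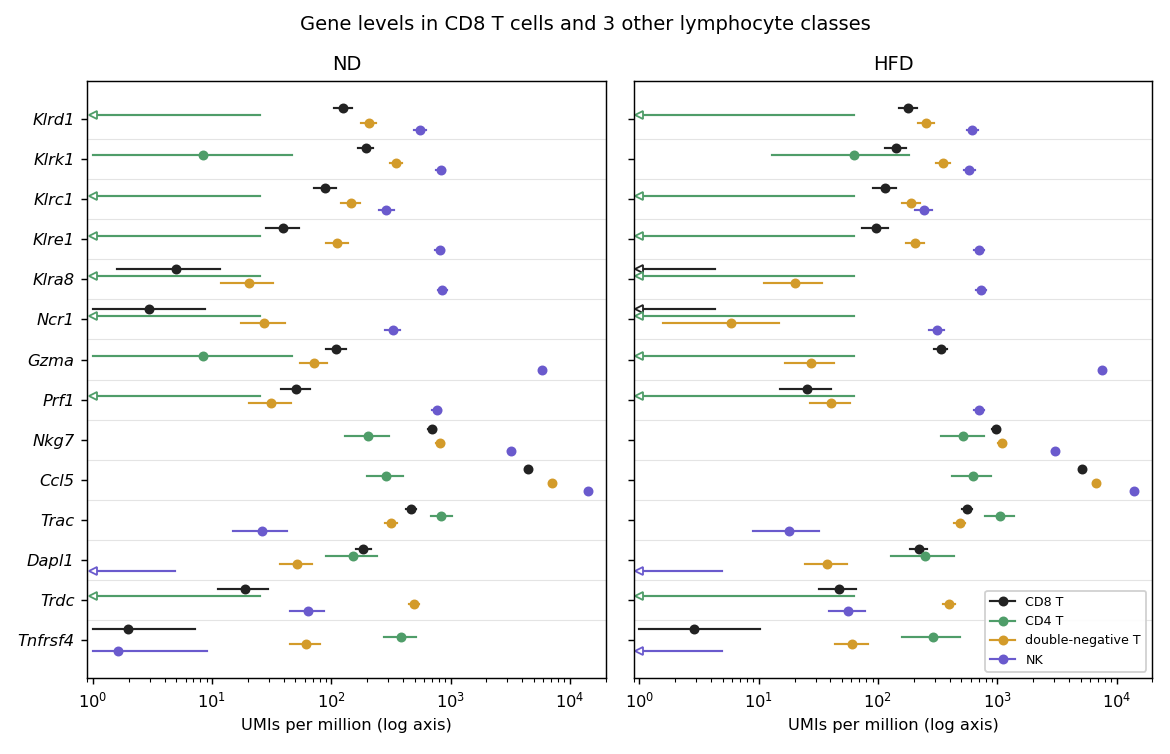
Levels of 14 genes in CD8 T cells (black), CD4 T cells (green), double-negative T cells (yellow) and NK cells (blue-violet) of the ND (left) and HFD library (right). The x axis shows UPM on a log axis, bars are exact 95% Poisson intervals, and open triangles are genes at 0 UMIs. For Gzma, Prf1, Nkg7 and Ccl5 the black points lie left of the NK cells, and for Trdc they lie left of the double-negative T cells.

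Between the diets, 5929 genes with at least 20 UMIs were compared in CD8 T cells. Of these, 132 (2.23%) were at least 2-fold higher in HFD and 263 (4.44%) at least 2-fold lower, and the median log2 ratio over all genes was 0.0085. The immediate-early list, genes that cells switch on within minutes of stimulation or stress, had the widest shift in summed level of the 20 lists. All 21 genes were below 0 on the log2 scale in HFD, and 6 of 21 were at least 2-fold lower (Jun, Fos, Egr1, Klf6, Hspa1a and Hspa1b). Their median log2 ratio was -0.53. Their summed level was 16566 UPM in ND and 9062 in HFD, a log2 ratio of -0.87 (interval -0.91 to -0.83, counting error only). With Hspa1a and Hspa1b left out it was -0.63, a smaller shift than in the naive (-0.69), tissue residency (-0.68) and T cell transcription factor lists. Without Klf2, described below, the naive and T cell transcription factor lists had -0.18 and -0.27. The rank of the immediate-early list thus depends on which genes are left out of each list.

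Within this list the lowest ratios were those of the heat-shock genes Hspa1a and Hspa1b, which encode the inducible chaperone HSP70, and of Jun, a subunit of the transcription factor AP-1. Their RefSeq promoter sequences, 250 bases upstream of the start site on build GRCm38.p6, are shown because these were the 3 lowest genes of the list. The Hspa1a window is chr17:34972157-34972406, the Hspa1b window chr17:34959239-34959488 and the Jun window chr4:95052223-95052472, all on the minus strand. Capitals mark matches to GAANNTTC, the inverted repeat of the heat-shock element, and to TGACNTCA, an AP-1 or CRE type motif.
Hspa1a: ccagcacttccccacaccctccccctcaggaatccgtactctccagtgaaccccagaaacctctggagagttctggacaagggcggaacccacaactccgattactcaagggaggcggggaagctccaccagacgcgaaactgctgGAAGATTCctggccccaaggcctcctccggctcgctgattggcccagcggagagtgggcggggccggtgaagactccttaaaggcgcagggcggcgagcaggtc
Hspa1b: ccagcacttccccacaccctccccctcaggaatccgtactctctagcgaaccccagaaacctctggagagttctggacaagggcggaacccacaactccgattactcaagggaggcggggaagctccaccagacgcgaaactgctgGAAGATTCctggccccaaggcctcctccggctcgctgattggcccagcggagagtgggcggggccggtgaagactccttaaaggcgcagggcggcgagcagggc
Jun: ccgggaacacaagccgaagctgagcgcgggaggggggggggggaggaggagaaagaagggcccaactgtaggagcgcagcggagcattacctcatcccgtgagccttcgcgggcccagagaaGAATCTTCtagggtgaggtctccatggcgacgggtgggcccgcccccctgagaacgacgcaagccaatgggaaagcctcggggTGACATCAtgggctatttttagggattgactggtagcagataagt
The Hspa1a and Hspa1b windows differ at 3 of 250 positions, C44T, T47C and T249G, counted from 1 at the 5′ end with the Hspa1a base first. The genes are near-identical copies, so how the reads were split between them is uncertain. Both strands were searched. GAANNTTC occurs in 2199 of 32851 promoter windows of the same length (6.69%) and, of the 18 list genes with a window, in 3 (Jun, Hspa1a and Hspa1b). TGACNTCA occurs in 2460 windows (7.49%) and in 6 of those list genes (Jun, Dusp1, Btg2, Klf6, Ppp1r15a and Tnfaip3). A match describes the letters only.

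Hspa1a had 2238 UMIs in ND and 493 in HFD CD8 T cells, or 2219 and 702 UPM, a log2 ratio of -1.66 (interval -1.80 to -1.52). Hspa1b had 2377 and 415 UMIs, a log2 ratio of -1.99. Jun had 1382 and 280 UMIs, or 1370.1 and 399 UPM, a log2 ratio of -1.78 (-1.97 to -1.59). All 3 were thus more than 2-fold lower in the HFD class, while the median gene was near 0. Klf6, a zinc finger factor, had a log2 ratio of -1.43, Egr1 -1.23 and Fos, the partner of Jun, -1.04. For Egr1 the ratio was -0.76 without the 5 ND and 3 HFD cells with other RNA or very many UMIs. Other members barely differed: Junb had 1177 UPM in ND and 1092 in HFD, log2 -0.11, and the phosphatase Dusp2 had -0.13, both with intervals that included 0. Outside the list, the small heat-shock protein Hspb1 was among the 10 lowest genes, with 261 UMIs in ND and 28 in HFD and a log2 ratio of -2.68. The co-chaperone Dnajb1, chosen after its values were seen, had 861 and 226 UMIs, log2 -1.40.

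The heat-shock transcripts sat in a subset of cells. At least 10 UMIs of Hspa1a and Hspa1b together were found in 52 of 131 ND cells (39.7%, interval 31.3 to 48.6) and in 15 of 86 HFD cells (17.4%, 10.1 to 27.1). The limit of 10 was set after the values had been seen. The median cell had 1 such UMI in ND and 0 in HFD, and the highest had 226 and 120. Cells with at least 10 of these UMIs had a median of 18.5 Jun UMIs in ND and 9 in HFD, against 1 and 0 in the other cells. In both libraries, then, Jun was high in the cells that were high in heat-shock transcripts. The HFD class had a smaller share of these cells. Both intervals cover counting error only and not the spread between mice, and the difference was not tested.

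**Figure D4:**
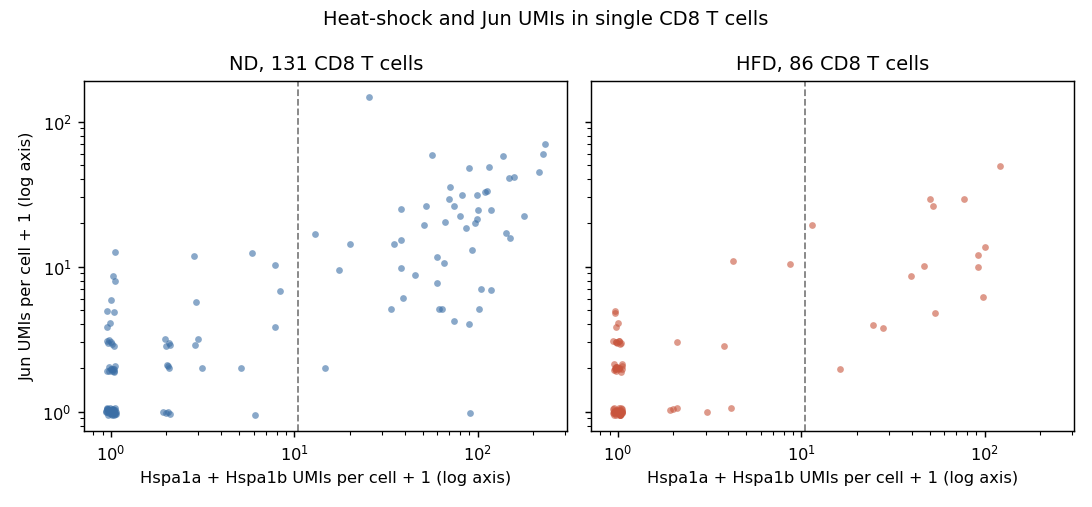
Each point is 1 CD8 T cell of the ND (left) or HFD library (right). The x axis shows summed Hspa1a and Hspa1b UMIs plus 1 and the y axis Jun UMIs plus 1, both on log axes with slight jitter, and the dashed line marks 10 heat-shock UMIs. Right of the line lie 52 of 131 ND and 15 of 86 HFD cells, with median Jun counts of 18.5 and 9.

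The immediate-early shift was present in both Ccl5 groups. The summed list had a log2 ratio of -0.94 in Ccl5-high and of -0.64 in Ccl5-negative cells. In Ccl5-high cells 19 of 56 ND and 5 of 45 HFD cells had at least 10 heat-shock UMIs (intervals 21.8 to 47.8% and 3.7 to 24.1%). In Ccl5-negative cells 29 of 61 and 10 of 34 had them (34.6 to 60.7% and 15.1 to 47.5%). Within each group the ND and HFD intervals overlapped. Hspa1a had log2 ratios of -2.42 and -0.77 in these groups, and Jun -2.54 and -1.05, where the second value was -0.75 with the cells that held other RNA left out. Without the 5 ND and 3 HFD cells with other RNA, the summed list had -0.93 and 20 of 21 genes were below 0. Other lymphocytes of the same libraries shared the direction for most of the list. Its summed log2 ratio was -0.44 in double-negative T cells, -0.29 in NK cells and -0.66 in B cells. Of its 21 genes, 18, 18 and 20 were below 0 in these classes. Cells with at least 10 heat-shock UMIs made up 36.2% of ND and 25.5% of HFD double-negative T cells, 22.7% and 10.8% of B cells, and 30.8% and 29.0% of NK cells. In NK cells Hspa1a had a log2 ratio of 0.37 and Jun of -0.00. Whether classes differ in this shift could not be tested with 1 library per diet. The diet and the handling of each library cannot be told apart.

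**Figure D5:**
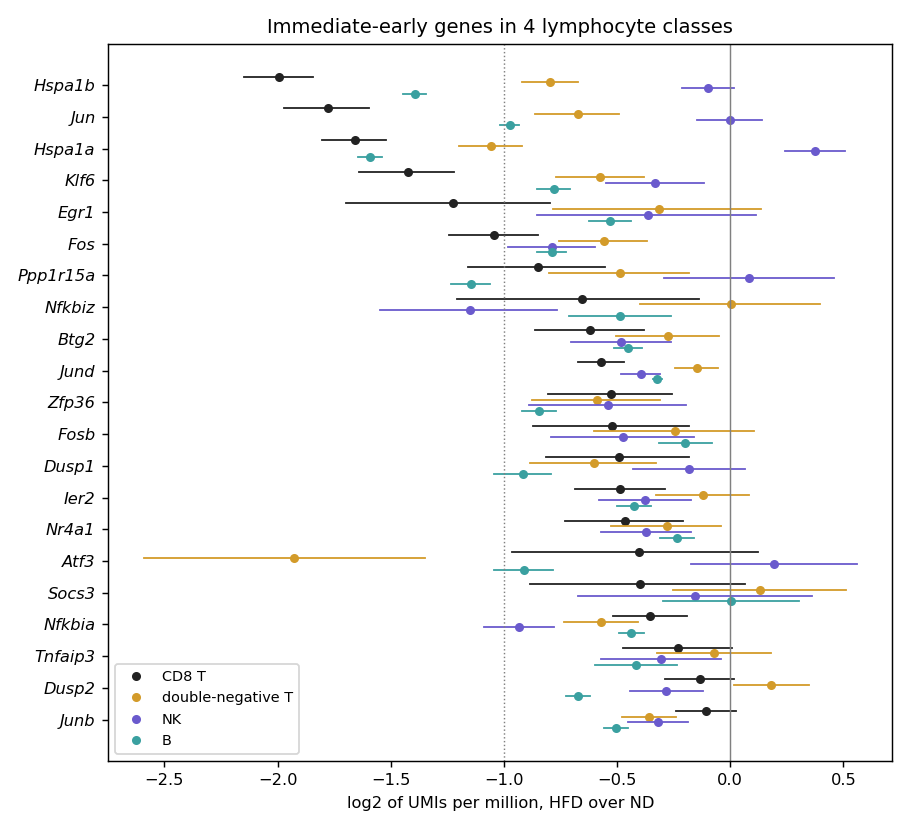
Log2 ratio of UPM, HFD over ND, for the 21 immediate-early genes in CD8 T (black), double-negative T (yellow), NK (blue-violet) and B cells (teal). Bars are exact 95% conditional intervals for counting error, the solid line is 0 and the dotted line a ratio of 2-fold lower. All 21 black points lie left of 0, and those of Hspa1b, Jun and Hspa1a reach -1.99, -1.78 and -1.66.

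Klf2, the factor that keeps naive T cells in circulation by way of S1pr1, was the most abundant naive gene. It had 2999 UMIs in ND and 815 in HFD CD8 T cells, or 2973 and 1161 UPM, a log2 ratio of -1.36 (interval -1.47 to -1.25). It was lower in both Ccl5 groups, -1.97 in Ccl5-high and -0.71 in Ccl5-negative cells, and also in double-negative T cells (-0.91) and B cells (-1.0), with -0.07 in NK cells. The summed naive list had a log2 ratio of -0.69, and Klf2 made up 47.5% of its UMIs. Without Klf2 it was -0.18 over all CD8 T cells, 0.096 within Ccl5-high cells and -0.071 within Ccl5-negative cells, and both within-group intervals included 0. With the 5 ND and 3 HFD cells left out these values were -0.27, -0.089 and -0.11, so the Ccl5-high value changed sign, and again both within-group intervals included 0. Klf2 was the 1 naive gene of 14 past 2-fold. Tcf7 (-0.15) and Lef1 (-0.28) differed less than Ccr7 (-0.40) and S1pr1 (-0.34). The T cell transcription factors had a summed log2 ratio of -0.71, and of -0.27 without Klf2, which became -0.38 with those cells left out.

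Memory genes differed less between the diets. The summed list had a log2 ratio of 0.19, Ccl5 supplying 74.5% of its UMIs, and none of 16 genes was at least 2-fold higher and 1 was lower. Ccl5 had 4526 UMIs in ND and 3623 in HFD, a log2 ratio of 0.20. Within the groups the summed list had -0.05 in Ccl5-high and -0.18 in Ccl5-negative cells, and both intervals included 0. Without the 5 ND and 3 HFD cells the summed list had 0.073 over all CD8 T cells. It then had -0.26 in Ccl5-high cells (interval -0.32 to -0.20), where 12 of 14 genes were below 0, and -0.34 in Ccl5-negative cells (-0.64 to -0.05), so both within-group intervals lay below 0. Ly6c2 had 397 and 487 UMIs, log2 0.82.

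Cytotoxic granule genes had a summed log2 ratio of 0.29, with 3 of 12 at least 2-fold higher and 0 lower, and 0.24 with 2 of 12 higher when the 5 ND and 3 HFD cells were left out. Gzmb, granzyme B, had 34 UMIs in 13 ND cells and 96 in 13 HFD cells, a log2 ratio of 2.01 (interval 1.44 to 2.63). Gzma had 111 UMIs in 6 ND cells and 235 in 9 HFD cells, 3.04-fold higher in UPM, and the highest single cell held 72 in ND and 74 in HFD. That HFD cell was among those left out for other RNA, and without them Gzma had 109 and 161 UMIs, 1.98-fold higher and no longer past 2-fold. Serpinb9, which protects cells from granzyme B, had 26 and 40 UMIs, log2 1.13. These transcripts came from small numbers of cells, so each value rests on few of them. Srgn, the proteoglycan of secretory granules, had 1575 UMIs in ND and 1071 in HFD, a log2 ratio of -0.03. The summed list had 0.58 without Srgn and 0.16 without Gzma and Gzmb. In double-negative T cells the whole list had 0.30 (interval 0.22 to 0.38), and 0.32 without Gzma and Gzmb. A shift of this size was thus not limited to CD8 T cells, while NK and B cells had 0.05 and -0.09. Within Ccl5-high cells the whole list had 0.26, and within Ccl5-negative cells -0.006. With the 5 ND and 3 HFD cells left out these values were 0.14 (interval 0.044 to 0.24) and -0.005, and both Ccl5-negative intervals included 0. In Ccl5-high cells, leaving out Gzma and Gzmb as well gave 0.057 (-0.044 to 0.16). The NK cell marker list, which Gzma led, summed to 391 UPM in ND and 659 in HFD, and its defining gene Ncr1 had 3 and 0 UMIs. The part of NK cell RNA in these values was not tested. Nkg7 had 697 and 968 UPM, log2 0.47. Prf1 went the other way with 51 UMIs in ND and 18 in HFD, log2 -0.95.

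Of the 9 secreted ligands with enough UMIs, 7 were below 0 on the log2 scale in HFD. The summed list had a log2 ratio of 0.057 (interval 0.0009 to 0.11), Ccl5 supplying 78.3% of its UMIs. Without the 5 ND and 3 HFD cells it was -0.082 (-0.14 to -0.024), so it changed sign. Ligands without Ccl5 had a summed log2 ratio of -0.49, and of -0.63 without those cells. Of the 9 ligands, 2 were at least 2-fold lower and 0 higher. Ifng, interferon gamma, had 106 UMIs in 13 ND cells and 10 UMIs in 3 HFD cells, a log2 ratio of -2.82 (interval -3.99 to -1.95). One ND cell held 42 of them. B cells, set beside as background, had an Ifng UMI in 4.06% of ND and 2.12% of HFD cells, and CD8 T cells in 9.92% (interval 5.39 to 16.4) and 3.49% (0.73 to 9.86), so the HFD share could not be separated from that background. Ccl4, a chemokine that attracts monocytes and T cells, had 484 and 165 UMIs, log2 -1.03, and Ccl3 had 68 and 56, log2 0.24. Xcl1 had 339 and 207, log2 -0.19, with an interval that included 0. Tnfsf11, the osteoclast factor RANKL, had 0 UMIs in both libraries, and Tnf had 18 and 11. Zero UMIs says only that the gene was not detected at this depth.

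NK receptors had a summed log2 ratio of 0.33, with 3 of 12 genes at least 2-fold higher and 1 lower. Of the 12 genes, 9 were above 0 and 3 below, with a median log2 ratio of 0.64. Leaving out the 5 ND and 3 HFD cells gave a sum of 0.29, with 1 of 11 genes at least 2-fold higher, 1 lower and 8 above 0. Within Ccl5-high cells the sum was 0.12 with 0 of 12 genes at least 2-fold higher, and -0.02 without those cells, and both of these intervals included 0. Klre1 had 40 UMIs in ND and 67 in HFD, in 21 and 20 cells, log2 1.26. Klrd1 had 0.51 and Klra7 0.79. Klrk1 had 196 and 99 UMIs, log2 -0.46. Cd244a was at 0 in both libraries. The single members thus lay on either side of 0, more of them above it. In double-negative T cells the summed list had 0.37 (interval 0.25 to 0.49), close to the CD8 value. It had -0.11 in NK cells and 0.26 in B cells, where the interval of -0.03 to 0.55 included 0.

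Cd69, an early activation and retention receptor, had 714 UMIs in ND and 254 in HFD, log2 -0.97, and it led the residency list at -0.68 and the activation list at -0.47. Rgs1, a brake on chemokine signaling, had 302 and 113 UMIs, log2 -0.89. Other residency markers were sparse: Itgae had 12 and 2 UMIs, Itga1 2 and 3, and Zfp683 0 and 2. Checkpoint receptors were sparse too, with Pdcd1 (PD-1) at 5 and 3 UMIs, Lag3 at 4 and 1, Havcr2 at 0 and 1 and Tigit at 3 and 3. Their summed list had a log2 ratio of -0.23, and -0.093 without the 5 ND and 3 HFD cells, both with intervals that included 0. Tox had 69 UMIs in ND and 25 in HFD, and Cd160 had 23 and 25. The residency list was also lower in HFD in NK cells (-0.63) and B cells (-0.58), and higher in double-negative T cells (0.23). Cd69 was found in 56.7% of ND and 44.0% of HFD NK cells, 62.4% and 52.5% of B cells, and 81.9% and 70.4% of double-negative T cells.

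Several lists showed little difference in their summed levels between the diets. The log2 ratio was 0.07 for TCR complex and signaling genes, 0.08 for MHC class I genes, 0.03 for cytokine receptors, -0.09 for homing receptors and -0.15 for lipid genes. In these 5 lists, 2 lipid genes were at least 2-fold lower and no gene was at least 2-fold higher. Glycolysis genes had 0.02 (interval -0.07 to 0.11) over all cells, with 8 of 15 genes above 0. Without the 5 ND and 3 HFD cells they had 0.31 (0.21 to 0.40), with 13 of 14 genes above 0 and none past 2-fold. Interferon genes had 0.05, with 1 of 18 at least 2-fold higher (Isg15, 30 and 45 UMIs, log2 1.10), and 0.21 without the cells that held other RNA. Glucocorticoid response genes had -0.21, where Tsc22d3, a steroid-induced leucine zipper protein, had 406 and 200 UMIs, log2 -0.50. Fkbp5, another target of the same receptor, had 8 and 16, log2 1.48. Proliferation genes had -0.01 over all cells and 0.57 without the 5 ND and 3 HFD cells, and the 1 large ND cell held 40 of the 44 ND Mki67 UMIs.

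Receptors for nerve-derived ligands were included because the study examined skeletal innervation. Of 26 such genes, 13 were at 0 UMIs in both libraries, and the summed log2 ratio was -0.38 (interval -0.76 to -0.02). Ramp1, a subunit of the receptor for calcitonin gene-related peptide, was detected in 18.3% of ND and 20.9% of HFD CD8 T cells and in 7.47% and 10.1% of B cells, which were shallower. In double-negative T cells the shares were 19.8% and 17.3%, close to those of CD8 T cells. Thinned to 1000 UMIs, Ramp1 was found in 4.58% of ND and 4.65% of HFD CD8 T cells and in 2.08% and 2.33% of B cells. It had a log2 ratio of -0.07 between diets. Ramp1 was lower in Ccl5-high than in Ccl5-negative cells, with 9 and 2 UMIs against 23 and 18. Calcrl, its partner chain, had 17 and 9 UMIs. Ramp3 had a UMI in 13.0% of ND and 11.6% of HFD CD8 T cells, against 12.9% and 14.3% of double-negative T cells and 0.129% and 0.332% of B cells.

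Many of the genes with the highest and lowest diet ratios came from single cells. Among the 10 highest with at least 50 UMIs, Ecrg4 had 59 of its 60 HFD UMIs in 1 cell and Igfbp5 166 of 179. Pam and Gpx3 also had their largest counts in 1 HFD cell, 28 of 39 and 23 of 32. Trdc had 33 UMIs in 3 HFD cells and 19 in 5 ND cells, log2 1.30. Gm47283 and Ms4a4c were spread over many cells. Gm47283 had 90 UMIs in 59 ND cells and 148 in 57 HFD cells, log2 1.24, and Ms4a4c, a membrane protein of leukocytes, had 35 in 25 and 59 in 37 cells, log2 1.27. Gzmb, Gzma and Klre1, given above, completed the 10. Among the 10 lowest, Cxcl1 had 56 UMIs in 1 ND cell, Ube2c 60 in 1, Mfap5 108 of 120 in 1, Cebpd 92 of 99 in 1 and Hist1h2ab 70 of 73 in 1. Ccl11, Dpt and Clec3b each came from 2 ND cells, and Ifng and Hspb1 have been described. With the 5 ND and 3 HFD cells left out, 153 of 5448 genes were at least 2-fold higher and 180 at least 2-fold lower.

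T cell receptor variable segments were rarely captured. Trav segments were found in 35 of 131 ND cells and 15 of 86 HFD cells, with 26 and 10 of 128 listed segments seen. Trbv segments were found in 31 ND and 21 HFD cells, with 12 and 13 of 35 seen. The most common beta segment was Trbv12-2, in 7 ND and 3 HFD cells. The most common alpha segments were Trav13-1 in ND and Trav19 in HFD, each in 4 cells.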

How the data were processed

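Periosteal cells of the ND and HFD groups were run on the 10x Genomics platform. The authors deposited 1 matrix of UMI counts per diet (unit counts, not normalized), made with Cell Ranger 6.0.1 on mm10 according to the submitters' processing notes, with 48558889 UMIs over 6314 barcodes for ND and 49940976 over 6636 for HFD. Each matrix pools the 4 labelled samples of its diet. The members and the gene lists were chosen with earlier results of these data known.

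UMIs were summed per class and library, and log2 ratios were taken of UMIs per 1000000 with an added count of 0.5, for genes with at least 20 UMIs, in Python 3.11.15 with numpy 2.4.6 and scipy 1.17.1. Intervals are exact (Clopper-Pearson for shares, Poisson for sums, conditional binomial for ratios) and cover counting error only. Differences count as called past 2-fold, since 1 library per diet allows no test. Because UMIs count 3′ ends, levels were compared between cells and not between genes. Named genes were the members of the lists, the 10 highest and 10 lowest ratios among genes with at least 50 UMIs, and the T cell receptor segments. Genes counted by the rule, and against NK cells the 3 genes that selected them, were left out of the ranks. The comparisons with double-negative T and NK cells used the same ranking and were added after seeing the data. Scrublet in scanpy 1.11.5 at an expected rate of 0.08 called 108 ND (1.79%) and 33 HFD (0.530%) of the kept cells doublets, 0 of them CD8 T cells, and none was removed. The scripts were tested on simulated data. Alternatives changed the limits of the rule, the doublets, the depth, the scaling, the weight of cells, the minimum UMIs and the added count. Some genes are not reported here.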

Additional observations from a re-analysis of the deposited data

How the results depend on the processing

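Of 161 alternative values, 133 stayed within the counting interval or 1.5 times of the value reported and 28 moved. The doublet and 10% mitochondrial settings left out no CD8 T cell, since Scrublet called 0 of them and their highest mitochondrial share was 7.32%. Values of the CD8 T cells alone were thus fixed in advance under these settings, although they are counted in the 133. The interferon log2 ratio, 0.05 with an interval that included 0, was the 1 ratio to change sign among the 5 lists recomputed here (naive, memory, cytotoxic granule, immediate-early and interferon), to -0.04 with at least 2 Cd8 UMIs (interval -0.17 to 0.08). The immediate-early log2 ratio was -0.82 with a Cd3 sum of at least 2, -0.95 with at least 5, -0.81 with at least 2 Cd8 UMIs, -0.77 as a mean over cells and -0.93 without the 5 ND and 3 HFD cells with other RNA or very many UMIs, a choice made after seeing the data. At least 2 Cd8 UMIs gave an ND share of 1.73% of kept and 39% of T cells, and a memory ratio of 0.30. Thinning gave 42.0% of ND and 32.6% of HFD cells with Ccr7 or Lef1. A mean over cells gave 0.086 for the memory and 0.19 for the interferon list, and leaving out the cells with other RNA gave 0.073, 0.21 and, for the naive list, -0.78. Genes 2-fold different between diets numbered 345 higher and 590 lower at a minimum of 10 UMIs and 22 and 65 at 50. Against CD4 T cells there were 689 lower at 10 UMIs, and 76 higher and 123 lower at 50. An added count of 0.1 gave 390 higher and 256 lower, and 1 gave 36 higher and 608 lower. Double-negative T cells in place of CD4 T cells gave 147 lower, and NK cells 229 higher and 640 lower. Without the CD8 T cells with other RNA, the count higher than in double-negative T cells went from 96 to 34. No double-negative cell was left out there, and these comparisons were all chosen after seeing the data.

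No paired analysis was possible because each matrix pools the 4 samples of its diet. No replicate was left out, since the cells carry no sample label. With 1 library per diet, the spread between mice is unknown. The 11 HFD CD4 T cells limit the comparison with that class.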
